A study of Mus musculus with 60 samples.

Results

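The genes described here are 10 genes of the circadian clock and its output, found by symbol among the 24508 genes of an expression table from mouse hippocampus: Dbp, Tef, Hlf, Per1, Per2, Per3, Nr1d1, Nr1d2, Arntl and Cry2. All 10 were found in the table and all 10 passed the filter on low values, a mean of at least 0.5 RPKM (reads per kilobase of transcript, scaled for depth). They were chosen by their known roles in the clock and by their RPKM difference between R6/1 and WT in these same libraries, so that difference is given as a description, with no test. The study compared frozen hippocampus from R6/1 mice with that from wild-type (WT) animals, 9 RNA-seq libraries of each, all from animals 30 weeks old on a CBA x C57BL/6 background. R6/1 is a transgenic model of Huntington's disease that carries a fragment of the human huntingtin gene with an expanded CAG repeat beside the animal's own huntingtin genes; WT mice lack the transgene, and no treatment is named for either group. The labels call the 9 libraries of a genotype biological replicates. Whether each is 1 animal, the sex of the animals and the hour at which tissue was taken are not given in the sources used here.

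The molecular clock is a feedback loop that runs in most cells, hippocampal neurons and glia included. CLOCK (or NPAS2) and BMAL1, the product of Arntl, bind E-boxes and switch on the Per and Cry genes, whose products enter the nucleus and hold CLOCK and BMAL1 back. In a second loop the same pair drives Nr1d1 and Nr1d2, which encode the REV-ERB repressors; these act on ROR elements, among them that of Arntl, so that Arntl peaks when Per and Nr1d1 transcripts are low. Dbp, Tef and Hlf encode the PAR bZIP activators, which pass the rhythm on through D-boxes, and NFIL3 is the repressor of the same sites. A sample taken at another hour therefore tends to differ in a known order. Arntl, Clock, Npas2, Cry1 and Nfil3 lie opposite to Dbp, Per3 and Nr1d1. Per1 and Per2 also answer to neuronal activity and to glucocorticoids.

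The sites that define these roles were looked for as exact letters, on both strands, in RefSeq promoter windows of 300 bases (250 before to 50 after each gene's start, build GRCm38.p6). The motifs were the E-box CACGTG, the E-prime box CACGTT, the D-box TTANGTAA, the cyclic AMP response element (CRE) TGACGTCA, and, each by its consensus, the ROR element (RORE) and the glucocorticoid response element (GRE); none of these contains another. Of the 10 genes, 9 matched the table, with 12 windows in all, and 7 held at least 1 match. Per2 was the member without a window, so its promoter was not searched. Among all 32851 windows, 7.15% held the E-box, 4.68% the E-prime box, 2.32% the D-box, 1.79% the CRE, 0.384% the RORE and 0.00913% the GRE. The sequences below show which clock element each promoter carries; capitals mark the motif, and letters run 5′ to 3′ on the gene's strand. For Per3 the whole 250 bases upstream are shown, because it was the member with a pair of D-boxes.
Per3, 2 D-boxes (chr4:151044666-151044915, minus strand): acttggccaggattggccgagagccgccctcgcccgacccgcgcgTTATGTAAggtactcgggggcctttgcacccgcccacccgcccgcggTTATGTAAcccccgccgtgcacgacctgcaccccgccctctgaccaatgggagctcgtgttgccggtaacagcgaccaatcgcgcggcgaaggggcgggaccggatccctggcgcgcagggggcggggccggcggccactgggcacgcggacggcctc
Per1, E-box (chr11:69098771-69098800, plus strand): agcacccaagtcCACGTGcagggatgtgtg
Tef, E-box, upstream start (chr15:81802534-81802563, plus strand): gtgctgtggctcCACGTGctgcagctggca
Tef, E-box, downstream start (chr15:81811264-81811293, plus strand): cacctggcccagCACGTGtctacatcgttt
Cry2, E-prime box (chr2:92434218-92434247, minus strand): acacatggtgggAACGTGagggggcggagc
Nr1d1, E-prime box (chr11:98775388-98775417, minus strand): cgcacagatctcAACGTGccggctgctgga
Hlf, CRE (chr11:90390908-90390937, minus strand): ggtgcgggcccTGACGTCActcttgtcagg
Arntl, RORE (chr7:113207528-113207557, plus strand): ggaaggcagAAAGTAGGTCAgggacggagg

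Positions are those of a motif's first base from the annotated start. The 2 D-boxes of Per3 began at -205 and -158 and have the same letters. The E-box of Per1 began at -166, and those before the 2 annotated starts of Tef at -127 and -138. The E-prime boxes of Cry2 and Nr1d1, at -166 and -28, lie on the opposite strand and so read as AACGTG. The CRE of Hlf, a site through which cyclic AMP and calcium signals act, began at -9, and the RORE of Arntl at 27 from its second annotated start. No exact match was found in the windows of Dbp and Nr1d2. A match describes letters in this window only.

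The libraries held between 12299434 and 16736544 reads on genes, in overlapping ranges for the 2 genotypes (12299434 to 16457022 in WT, 13260311 to 16736544 in R6/1). Differences are given as R6/1 minus WT on the log2(RPKM + 0.5) scale with the standard error of the limma fit over all 14446 tested genes, and levels as mean RPKM ± SD over 9 libraries. In that fit 48.3% of all tested genes passed a limma adjusted p of 0.05 (23.5% lower and 24.8% higher in R6/1). In 11.9% of all tested genes the 2 genotypes did not overlap (6.38% with R6/1 lower, 5.5% with R6/1 higher). Of the 10 members, 8 were past the threshold and lower, 1 was past it and higher, and 5 did not overlap between genotypes, all 5 with R6/1 lower; these counts follow from how the members were chosen. The median difference was -0.35 over the 10 members and 0.00 over all tested genes. In whole tissue, fewer cells of a type and less RNA per cell cannot be told apart.

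Dbp, the PAR bZIP factor with the strongest daily rhythm in most tissues, had the widest difference. In the WT libraries it ran from 14.8 through a median of 20.7 to 26.1 RPKM, and in the R6/1 libraries from 7.08 through 7.91 to 9.66 RPKM. The means were 20.5 ± 4.18 and 8.03 ± 0.922 RPKM, a log2 difference of -1.28 (SE 0.10), so that the R6/1 mean was 0.391 times that of WT. All 9 R6/1 libraries lay below the lowest WT library. Within WT, replicates 2, 8 and 9 were highest and replicates 1 and 5 lowest.

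Hlf, a PAR bZIP factor abundant in the brain, ran from 28.2 through 37.2 to 48.9 RPKM in WT and from 20.1 through 25.0 to 27.9 RPKM in R6/1. The means were 37.4 ± 6.96 and 24.2 ± 2.50 RPKM, a log2 difference of -0.60 (SE 0.094). The genotypes did not overlap, and the highest R6/1 library, replicate 7, came close to the lowest WT libraries, replicates 3 and 5. Tef, the third PAR bZIP factor and by level the most abundant of the 10 genes, ran from 92.1 through 101.4 to 122.1 RPKM in WT and from 69.1 through 78.5 to 81.9 RPKM in R6/1. The means were 103.0 ± 8.48 and 78.0 ± 3.86 RPKM, a log2 difference of -0.40 (SE 0.045), again with no overlap. The WT order of libraries was not that of Dbp: Tef was highest in WT replicate 1, where Dbp was lowest.

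The 3 Period genes encode the repressors of the loop. Per3 ran from 6.90 through 8.71 to 10.3 RPKM in WT and from 4.07 through 5.09 to 5.50 RPKM in R6/1. Its means were 8.71 ± 1.07 and 4.84 ± 0.572 RPKM, a log2 difference of -0.78 (SE 0.074), and all R6/1 libraries lay below all WT libraries. Per1 ran from 15.5 through 21.4 to 25.0 RPKM in WT and from 12.4 through 16.1 to 20.1 RPKM in R6/1 (means 20.2 ± 2.88 and 16.2 ± 2.09 RPKM, log2 difference -0.31, SE 0.084). Per2 ran from 6.02 through 7.42 to 9.05 RPKM in WT and from 5.15 through 6.05 to 7.16 RPKM in R6/1 (means 7.50 ± 0.990 and 6.15 ± 0.646 RPKM, log2 difference -0.26, SE 0.073). For both the genotypes overlapped: 3 of 9 R6/1 libraries were below the lowest WT library for Per1 and 4 of 9 for Per2. Cry2, the cryptochrome that represses beside the Period proteins, ran from 35.7 through 39.4 to 42.2 RPKM in WT and from 31.7 through 36.7 to 41.6 RPKM in R6/1. Its log2 difference was -0.07 (SE 0.045), and -0.00 with scaling by the library's own read total, so it is the member whose level hardly differed.

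Of the genes of the second loop, Nr1d1, which encodes REV-ERB alpha, ran from 27.1 through 34.8 to 38.1 RPKM in WT and from 17.4 through 19.6 to 23.4 RPKM in R6/1. The means were 33.9 ± 3.28 and 20.04 ± 1.85 RPKM, a log2 difference of -0.74 (SE 0.061), with no overlap. Its paralogue Nr1d2, which encodes REV-ERB beta, ran from 23.4 through 27.4 to 32.7 RPKM in WT and from 21.3 through 24.4 to 27.1 RPKM in R6/1, a log2 difference of -0.22 (SE 0.063). The genotypes overlapped for Nr1d2, with 3 of 9 R6/1 libraries below the WT range. Arntl, the activator that these repressors act on, was the member that lay higher in R6/1. It ran from 9.14 through 10.3 to 10.9 RPKM in WT and from 10.2 through 10.9 to 11.8 RPKM in R6/1, with means of 10.1 ± 0.641 and 10.97 ± 0.564 RPKM and a log2 difference of 0.11 (SE 0.042). In 5 of 9 R6/1 libraries Arntl was above the highest WT library. Its log2 difference ran from 0.057 to 0.18 over the alternative fits that kept all libraries, so its size depends on the fit. The authors' deposited table gave log2 fold changes from -1.29 for Dbp to 0.11 for Arntl.

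**Figure D1:**
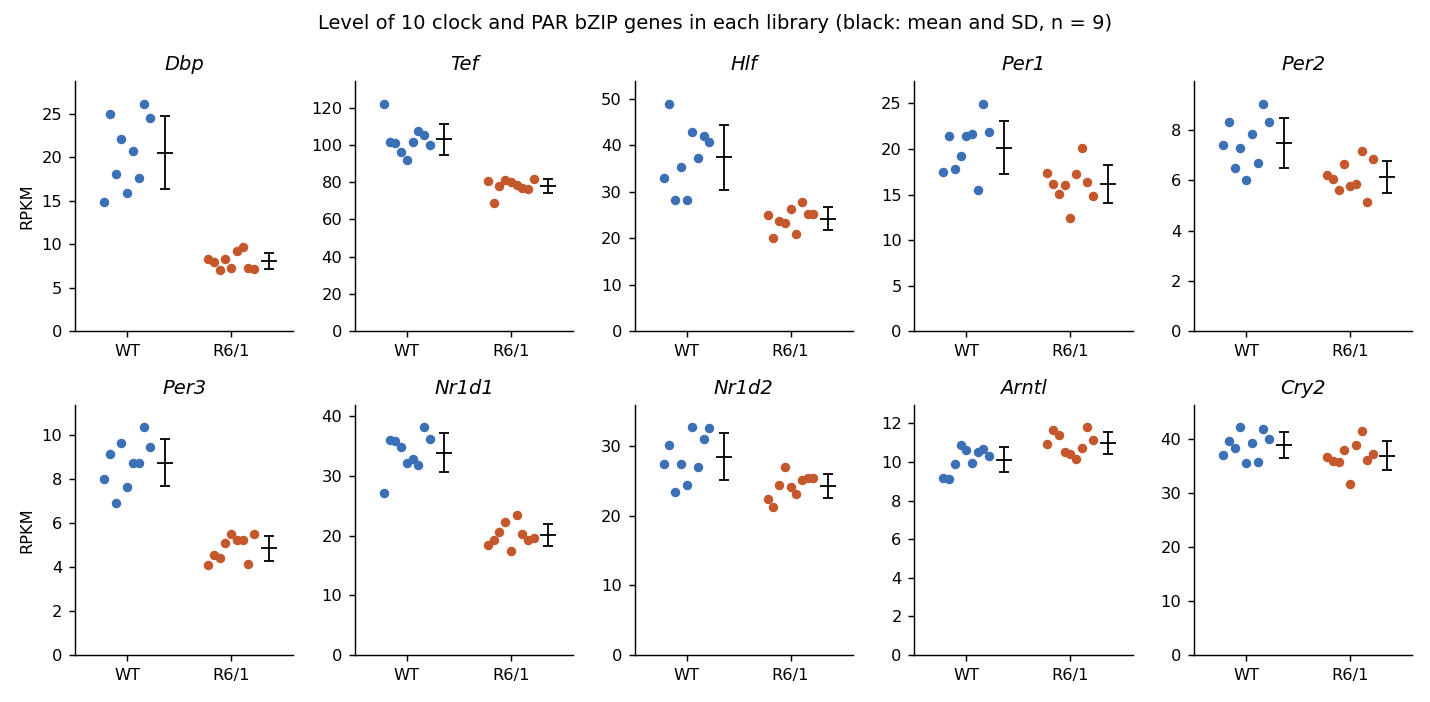
RPKM of each of the 10 genes (1 panel per gene, axis from 0) in the 9 WT (blue) and 9 R6/1 (orange) libraries, in replicate order from left to right; black marks give the mean and SD. Dbp, Tef, Hlf, Per3 and Nr1d1 show no overlap between genotypes, while Cry2 and Arntl lie within a narrow range in both.

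The order of levels, compared per kilobase, changed with genotype. In WT it was Tef, Cry2, Hlf, Nr1d1, Nr1d2, Dbp, Per1, Arntl, Per3 and Per2. Tef was above Cry2 and Per1 above Arntl with no overlap of the ranges; all other neighbours overlapped, and Dbp was above Per1 in 6 of 9 libraries. In R6/1 the order was Tef, Cry2, Nr1d2, Hlf, Nr1d1, Per1, Arntl, Dbp, Per2 and Per3. There the means of Nr1d2 and Hlf were close, 24.27 and 24.18 RPKM, with Nr1d2 above Hlf in 6 of 9 libraries. Dbp stood below Arntl in all 9 R6/1 libraries and above it in all 9 WT libraries. The ratio of Dbp to Arntl within a library, which removes any common scaling, was 2.03 ± 0.423 in WT (1.49 to 2.74) and 0.736 ± 0.111 in R6/1 (0.621 to 0.906). As Dbp was chosen by its difference, this ratio restates that difference and is not a further result.

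In the annotation of build NCBIM37 (named mm9 in the submitters' processing notes), the genes lie on 7 chromosomes, and none starts in a lamin B1 domain, a long stretch of chromatin at the nuclear lamina, in the 145 domains of WT or the 166 of R6/1. Dbp lies on chromosome 7 from 52960458 to 52965525 (plus strand), Per3 on chromosome 4 from 150377761 to 150418774 (minus strand), Nr1d1 on chromosome 11 from 98629246 to 98636647 (minus strand), Arntl on chromosome 7 from 120350979 to 120457636 (plus strand). The member start nearest to a domain was that of Hlf (chromosome 11, 90197849 to 90252231, minus strand), 323.8 kb from a WT domain and 286.8 kb from an R6/1 domain. Exons of 4 members overlap a gene on the opposite strand. The library kit keeps the strand, but whether the counting used it is not stated, so shared reads cannot be assigned with certainty. Sphk2, a sphingosine kinase gene, shares 491 of the 2945 exonic bases of Dbp. Its level was 6.96 ± 0.417 RPKM in WT and 9.25 ± 0.612 RPKM in R6/1, and it rose in R6/1, opposite to Dbp (log2 difference 0.39, limma adjusted p 9.11e-07). Thra, the thyroid hormone receptor alpha gene, shares 263 of the 3124 exonic bases of Nr1d1 and fell slightly, by 0.15 on the log2 scale (limma adjusted p 0.0120), from a mean of 274.4 to 247.6 RPKM. D930015M05Rik, which shares 295 of 6320 bases with Cry2, did not pass (log2 difference -0.27, limma adjusted p 0.0529), and Gm17597, which shares 193 of 7865 bases with Tef, was not analysed here. These partners were looked up after the data were seen.

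The clock genes that are not members moved in both directions. Of 18 other core clock genes, 7 rose, 5 fell and 6 did not pass the limma test, against 48.3% of all tested genes that passed, and their median difference was 0.02. Cry1, the cryptochrome whose transcript peaks late in the cycle, rose most. It ran from 4.33 through 5.17 to 6.34 RPKM in WT and from 7.70 through 8.32 to 9.92 RPKM in R6/1, with no overlap (log2 difference 0.69, SE 0.071, limma adjusted p 1.82e-07). Clock rose from 12.3 ± 0.472 to 14.1 ± 0.601 RPKM, also with no overlap (log2 difference 0.19, limma adjusted p 9.44e-05). Btrc, which encodes an F-box protein that marks PER proteins for breakdown, rose by 0.27 on the log2 scale (limma adjusted p 9.23e-06). Csnk1d, which encodes a kinase of PER proteins, and the F-box protein gene Fbxw11 rose by 0.23 and 0.11 on the log2 scale (limma adjusted p 7.48e-06 and 0.0403). Nfil3, the D-box repressor, rose from 4.15 ± 0.465 to 4.87 ± 0.681 RPKM (log2 difference 0.20, limma adjusted p 0.0317), a call that was lost in 9 of the 18 fits that left out a library. Npas2, the partner that can replace Clock in the forebrain, had a mean of 7.69 ± 1.57 RPKM in WT against 6.85 ± 0.977 RPKM in R6/1 and did not pass (log2 difference -0.14, limma adjusted p 0.271).

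The 5 core genes that fell were Ciart, Bhlhe40, Bhlhe41, Rorb and Timeless. Ciart, a CLOCK and BMAL1 repressor gene with a strong rhythm, fell from 6.94 ± 1.81 to 3.65 ± 0.819 RPKM (log2 difference -0.83, limma adjusted p 0.000102), with 6 of 9 R6/1 libraries below the WT range. Bhlhe40, an E-box repressor that is also induced by neuronal activity, fell from 30.6 ± 4.32 to 18.9 ± 1.98 RPKM with no overlap (log2 difference -0.67, limma adjusted p 6.75e-07), and its relative Bhlhe41 fell by 0.28 (limma adjusted p 0.00225). Rorb, a ROR-element activator that also marks some neurons, fell by 0.55 (limma adjusted p 0.000122). The ratio of Per3 to Cry1 within a library was 1.70 ± 0.217 in WT and 0.571 ± 0.103 in R6/1, with no overlap. Neither gene overlapped between genotypes and they differed in opposite directions, so the ratio could not overlap either. It restates those differences, and Per3 was chosen by its own.

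Of 21 clock output genes, 18 passed the filter on low values; 3 rose, 6 fell and 9 did not pass the limma test, a share close to the 48.3% of all tested genes, with a median difference of -0.06. Bhlhe40 and Bhlhe41, which stand in both lists, are 2 of the 6 that fell. Scaling by the library's own read total gave 6 that rose and 6 that fell. Usp2, a deubiquitinase gene driven by the clock in many tissues, ran from 11.1 through 15.9 to 18.4 RPKM in WT and from 8.45 through 10.3 to 10.95 RPKM in R6/1, and fell with no overlap (log2 difference -0.63, limma adjusted p 1.03e-06). Klf10, a zinc finger factor gene, fell from 7.98 ± 0.873 to 4.59 ± 1.00 RPKM (log2 difference -0.76, limma adjusted p 5.29e-06). Vip, a neuropeptide gene that in hippocampus marks a class of inhibitory neurons, fell by 0.93 (limma adjusted p 7.91e-06). The cold-inducible RNA-binding protein genes Cirbp and Rbm3, which follow body temperature, rose by 0.42 and 0.43 on the log2 scale (limma adjusted p 0.0108 and 0.0307); the call of Rbm3 was lost in 6 of the 18 fits that left out a library. Wee1, a cell cycle kinase gene with a known E-box, Tspan4 and Pdxk did not pass, with differences of 0.09, -0.01 and -0.04.

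**Figure D2:**
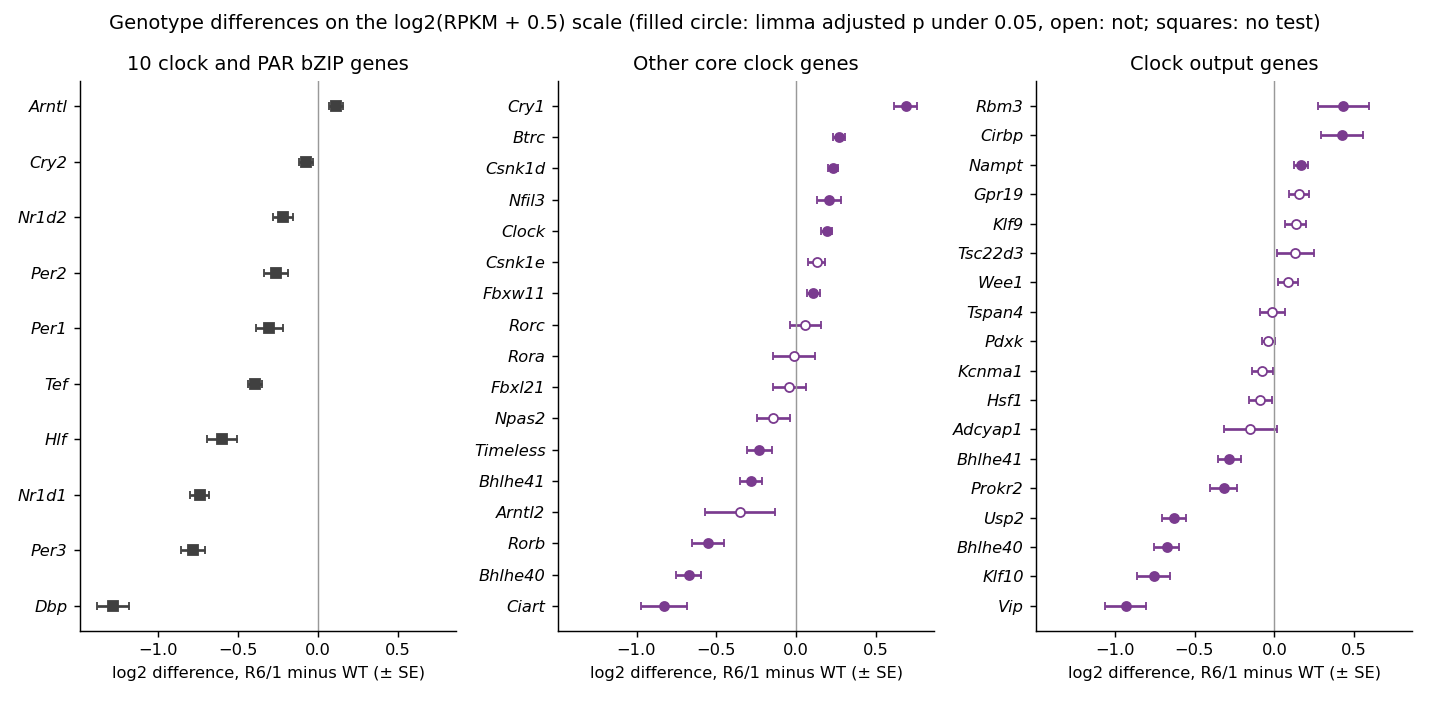
Log2 difference (R6/1 minus WT, ± SE of the limma fit) of the 10 members (squares, no test), all but 1 of the other core clock genes and the clock output genes (circles, filled where the limma adjusted p was under 0.05); Bhlhe40 and Bhlhe41 stand in both lists. Dbp at -1.28 and Cry1 at 0.69 mark the ends of the range.

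The spread between libraries of 1 genotype was described for each member, with no test, since genes chosen for a clear difference are in part chosen on their spread. For Dbp the coefficient of variation was 20.3% in WT and 11.5% in R6/1, for Hlf 18.6% and 10.4%, for Per1 14.3% and 12.9%. Set against tested genes of like mean level, the residual SD of Hlf was at percentile 96.0, that of Dbp at 93.5 and that of Per1 at 91.8. In each genotype alone the values were not the same: Dbp was at percentile 96.5 in WT alone and 77.6 in R6/1 alone (SD 0.293 and 0.152), and Hlf at 97.0 and 85.7. The other members ran from percentile 11.3 for Arntl to 79.8 for Nr1d2. Counting of reads alone gives Dbp a coefficient of variation of 4.64% in WT, 5.2% of its variance there. In R6/1, where Dbp had fewer reads, counting alone gives 6.92%, 36.4% of its variance. For Arntl the observed coefficient was 6.33% in WT and 5.14% in R6/1, and counting alone gives 4.94% and 4.49%, that is 60.8% and 76.3% of the variance. Little variation of Arntl beyond counting was thus detectable at this depth, which limits any relation of other genes with it.

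**Figure D3:**
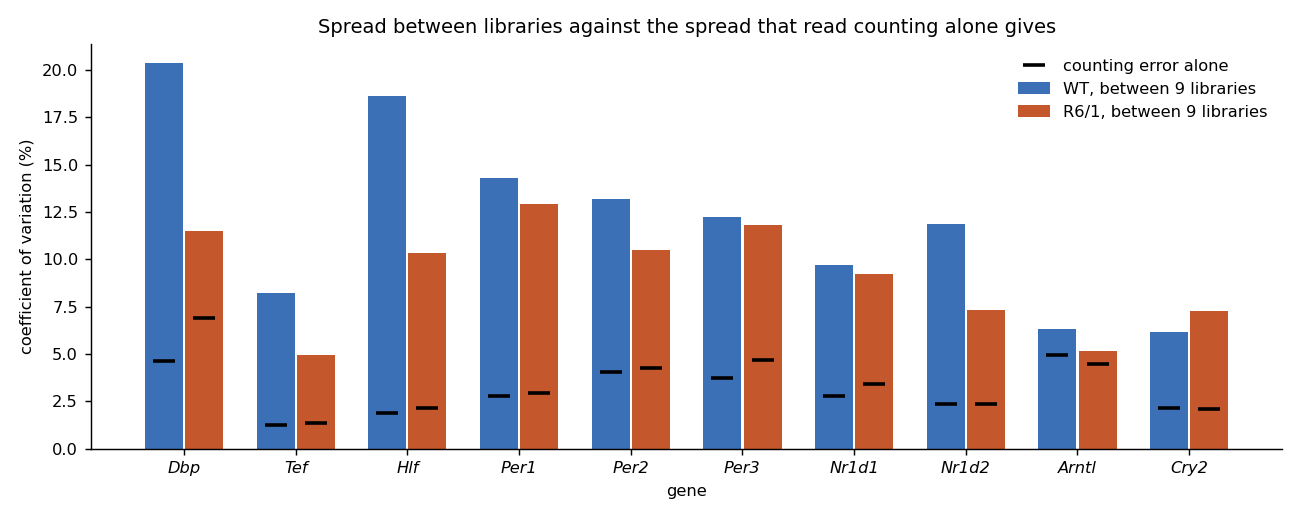
Coefficient of variation of RPKM (percent, axis from 0) over the 9 libraries of each genotype for each member (bars), with the coefficient that read counting alone gives (black marks). Dbp and Hlf in WT stand highest, at 20.3% and 18.6%, and the bars of Arntl lie just above their marks.

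Whether libraries differ in clock phase was examined within a genotype, where the genotype difference plays no part. Libraries taken at far-apart phases would tend to differ in opposite directions for Arntl and for Per, Nr1d1 and the PAR bZIP genes. The correlation of Arntl with the other 9 members, Cry2 included, was therefore computed in each genotype, 18 relations in all. Libraries of a genotype taken at the same hour would show no such relation, so these correlations cannot decide whether phase differs between genotypes. None passed after Benjamini-Hochberg adjustment (lowest adjusted p 0.58), and 0 of 18 had an unadjusted exact permutation p under 0.05. In WT, r was negative for 4 of 9 members with a median of 0.15; without replicate 1 it was negative for 7 and without replicate 2 for 1, so the sign rests on single libraries. In R6/1, r was negative for 8 of 9 members with a median of -0.35, and the number ran from 6 to 9 when 1 library was left out. The lowest p was that of Per3 in R6/1, with r -0.66 (exact permutation p 0.0572, adjusted 0.58) and rho -0.50 (exact permutation p 0.178, adjusted 0.926); without the 2 libraries farthest from the median of Arntl, r was -0.53. For Dbp, r was 0.17 in WT (exact permutation p 0.654, adjusted 0.876; rho 0.17, p 0.678, adjusted 0.982) and -0.55 in R6/1 (p 0.125, adjusted 0.58; rho -0.48, p 0.194, adjusted 0.926). Without the 2 farthest libraries these were 0.18 and -0.31. Over the residuals of all 18 libraries, the strongest relation of Arntl was with Tef (r -0.55, permutation p 0.026, adjusted over 9 relations 0.234). Whether the relations differ between genotypes was not tested.

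The members other than Arntl mostly varied in the same direction. Of their 36 pairs, 31 had a positive r in WT (median 0.58) and 27 in R6/1 (median 0.23). Tef stood apart in WT, with a negative r with 5 of the 8 others; without it all 28 pairs were positive in WT, from 0.26 to 0.88, and 22 of 28 in R6/1. The points of each correlation share a library and its depth scaling. The genes Clock, Npas2, Cry1 and Nfil3 were then set against Dbp, after the data were seen, in 8 relations. Npas2 had r 0.71 in WT (exact permutation p 0.0364, adjusted 0.291; rho 0.73, p 0.0311, adjusted 0.249), and without the 2 libraries farthest from the median of Dbp 0.50. Cry1 had r 0.57 in WT (exact permutation p 0.113, adjusted 0.452; rho 0.60, p 0.0968, adjusted 0.387), and 0.35 without those 2 libraries. In R6/1 the r of Dbp with Npas2 was 0.02 and with Cry1 0.06 (exact permutation p 0.964 and 0.872), and 0 of the 8 relations passed after adjustment. The relations of these genes with the other members were not tested. Over all members and both genotypes, r ran from -0.86 (Nr1d1 with Nfil3 in R6/1, -0.53 in WT) to 0.80 (Nr1d1 with Npas2 in WT, 0.33 in R6/1).

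**Figure D4:**
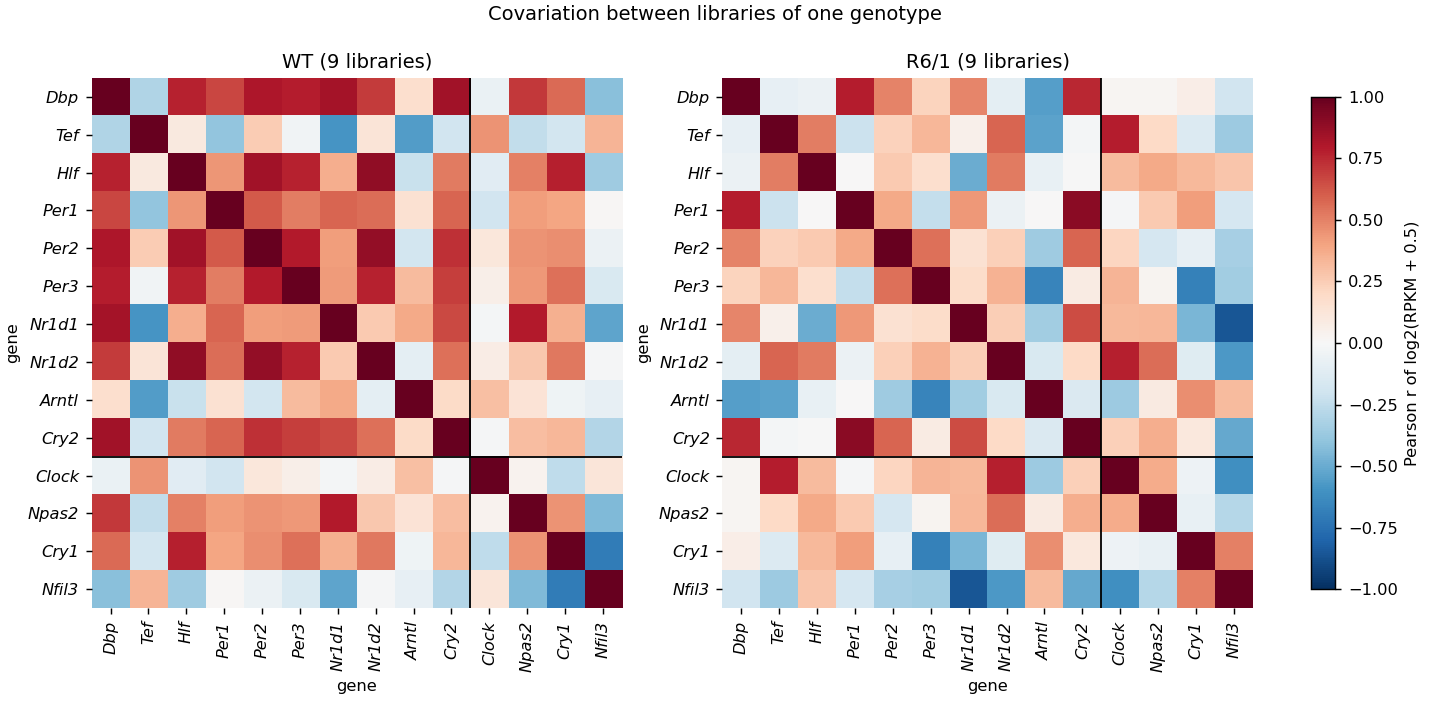
Pearson r of log2(RPKM + 0.5) over the 9 libraries of WT (left) and R6/1 (right) between the 10 members and, past the black lines, Clock, Npas2, Cry1 and Nfil3 (colour from -1, blue, to 1, red). In WT all 28 pairs of members without Arntl and Tef are positive; the row of Arntl holds both signs in WT, from -0.56 with Tef to 0.38 with Nr1d1, and 8 of 9 negative values in R6/1.

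**Figure D5:**
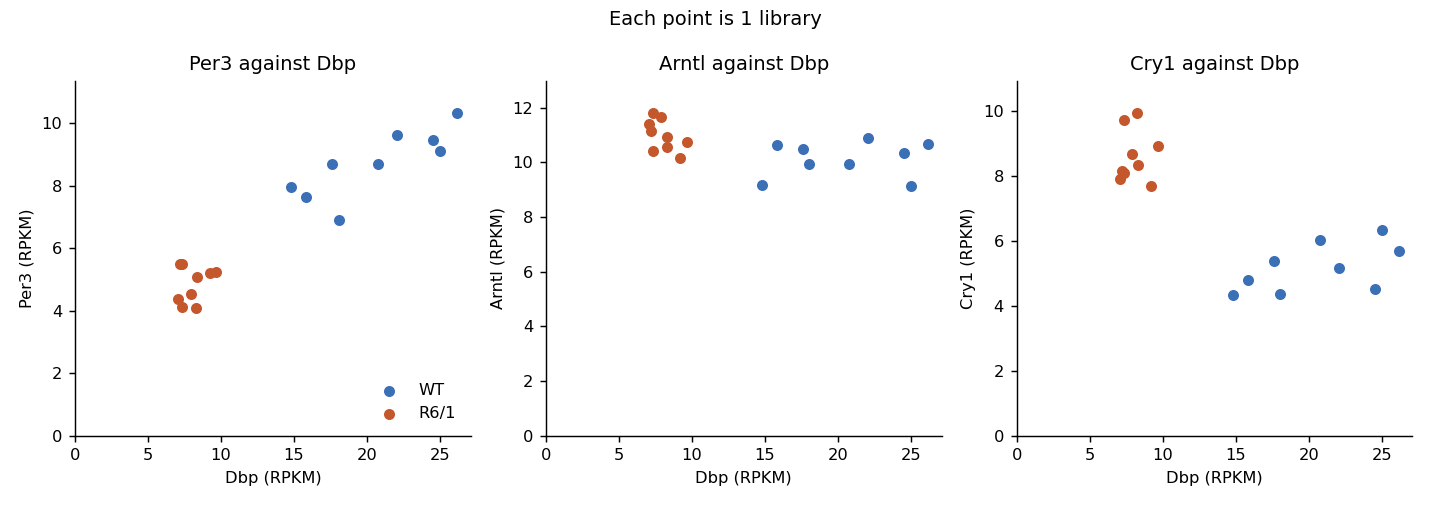
RPKM of Per3, Arntl and Cry1 (vertical, axes from 0) against Dbp (horizontal) in each of the 18 libraries (WT blue, R6/1 orange). The genotypes form separate groups for Per3 and Cry1, while Arntl spans 9.14 to 11.8 RPKM over the whole range of Dbp, 7.08 to 26.1 RPKM.

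The genotype difference was also fitted with genes that the clock model above places at the opposite phase as a covariate. This is a description, since it rests on the same differences that chose the members. Whether these genes follow an opposite phase in these libraries was not tested. In WT, r with Dbp was 0.71 for Npas2, 0.57 for Cry1, -0.07 for Clock and -0.42 for Nfil3. With Arntl as the covariate, the log2 difference of Dbp was -1.27, that of Per3 -0.76, that of Nr1d1 -0.76, that of Hlf -0.55 and that of Tef -0.32. Without it these were -1.28, -0.78, -0.74, -0.60 and -0.40. As most of the variance of Arntl within a genotype is counting error, this covariate is a poor measure of phase, and nothing about phase is read from it. With the mean of Clock, Npas2, Cry1 and Nfil3 as the covariate, the log2 difference of Dbp was -1.61, that of Hlf -1.04, that of Per1 -0.55 and that of Nr1d2 -0.38, while that of Tef was -0.38, against -0.40 without it. Clock and Cry1 did not overlap between genotypes, while Npas2 and Nfil3 did. As the covariate averages them all, these values rest largely on levels that the genotypes do not share. The hour of collection itself is not given, so a difference in hour between the genotypes and a difference of genotype cannot be told apart by these libraries.

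Genes that answer to neuronal activity and to glucocorticoids, inputs to Per1 and Per2, were counted in the same fit. Of 12 activity-regulated genes, 9 fell and 0 rose by the limma test, against 48.3% of all tested genes that passed in either direction (median difference -0.65, against 0.00 over all tested genes). Arc, the synaptic immediate early gene, fell from 64.4 ± 19.7 to 22.03 ± 6.96 RPKM (log2 difference -1.52, limma adjusted p 3.46e-06), and Npas4, an activity-induced transcription factor gene, fell by 1.30 (limma adjusted p 0.00105). Of 12 glucocorticoid-responsive genes, 4 rose and 0 fell (median 0.14), a smaller share than the 48.3% of all tested genes that passed in either direction. By direction, 24.8% of all tested genes rose and 23.5% fell. The 4 were Plin4, a lipid droplet protein gene (0.722 ± 0.249 to 10.6 ± 4.19 RPKM, log2 difference 3.10), Cdkn1a (1.84), Sult1a1 (1.27) and Sgk1 (0.78), with limma adjusted p between 6.74e-10 and 0.000553. Fkbp5, a classical glucocorticoid target, had a mean of 14.6 ± 2.25 RPKM in WT against 17.2 ± 4.94 RPKM in R6/1 and did not pass (limma adjusted p 0.2998). Their part in the differences of the clock genes was not tested.

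Cell type markers were counted in the same fit, where 23.5% of all tested genes fell and 24.8% rose; their part in the clock differences was not tested. Of the dentate granule neuron markers 6 of 6 fell, and their summed level was 71.3 to 111.3 RPKM in WT and 42.3 to 53.6 RPKM in R6/1. Of the CA1 pyramidal markers 4 of 5 fell and 1 rose (180.5 to 254.4 and 140.2 to 154.3 RPKM), of the CA3 pyramidal markers 4 of 5 fell (62.8 to 117.1 and 44.1 to 57.0 RPKM), and of the inhibitory neuron markers 5 of 6 fell (351.3 to 427.8 and 212.1 to 278.1 RPKM). Among glial and vascular lists, 5 of 6 astrocyte, 4 of 6 oligodendrocyte, 3 of 6 microglia, 1 of 5 endothelial and 0 of 5 choroid plexus markers fell, and 0 rose; the endothelial and choroid plexus shares are below that of all tested genes. Markers of the suprachiasmatic nucleus, the hypothalamic pacemaker, bear on the labelled tissue: Avp and Prok2 were at or under 0.623 RPKM in every library. Six6 averaged 0.203 ± 0.0979 RPKM in R6/1 against 0.00706 ± 0.00838 RPKM in WT, with no overlap; the authors' deposited table gives it a log2 fold change of 1.80, and one of -0.62 for Avp. These 3 genes did not pass the filter on low values. The other two, Vip and Rgs16, which hippocampal neurons also make, fell by 0.93 and by 0.83 on the log2 scale (limma adjusted p 7.91e-06 and 0.00235).

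Residuals from the genotype means were correlated over 18 libraries and compared across 13095 genes. The genes most like Dbp were Wfs1 (r 0.86), Ttc9 (0.85), Bhlhe40 (0.82), Umad1 (0.81) and Far2 (0.80). As the residual SD of Dbp was 0.293 in WT and 0.152 in R6/1, the WT libraries weigh more in these values. Wfs1, an endoplasmic reticulum protein gene, is one of the CA1 markers above and fell from 47.8 ± 9.90 to 13.6 ± 0.736 RPKM with no overlap (log2 difference -1.76, limma adjusted p 1.82e-11). Among members, Cry2 was most like Dbp (0.74), with 17 other genes higher, although its own level hardly differed between genotypes. The genes most like Arntl were Ube2d1 (0.83), Colgalt1 (0.82), Mettl17 (0.82), Ints10 (0.82) and Trim39 (0.81), and 0 of these 5 is on a clock list used here. Counting of reads alone gives 60.8% of the variance of Arntl in WT and 76.3% in R6/1, so no relation is read from these values. For Dbp and Arntl alike, the genes named are the highest of 13095 over 18 libraries, with no test.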

How the data were processed

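Hippocampal RNA-seq libraries (9 WT, 9 R6/1) were assigned by the genotype label; the ATAC-seq and ChIP-seq libraries were not used here, except that the deposited lamin B1 domain lists (1 per genotype, each domain with the authors' score) gave the positions of domains. The authors deposited RPKM per gene and a comparison table with a mean normalized count (a signal scaled by size factors), log2 fold changes, a test score and p-values; TopHat, DESeq2 and mm9 are named in the submitters' processing notes. The counter and its settings are not given in the sources used here. Multiplied by the mean count over the mean RPKM, 99.89% to 99.92% of the values were whole reads within 0.05 of a read, which gave the depth of each library.

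Differences were fitted with limma 3.58.1 (R 4.3.3; lmFit, eBayes with trend, two-sided) on log2(RPKM + 0.5) over genes averaging at least 0.5 RPKM, with Benjamini-Hochberg adjustment over all of them and a threshold of 0.05; the pseudocount understates changes of low genes. The fit was tested on simulated data. Correlations within a genotype used exact two-sided permutation tests over all pairings of 9 libraries, and over 18 libraries 100000 permutations within genotype. Motifs were matched in RefSeq promoter windows of build GRCm38.p6, and coordinates of genes come from NCBIM37.

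The members, gene lists and tests were chosen with earlier results of these data known. The genes named are the 10 members, Clock, Npas2, Cry1, Nfil3 and Ciart, up to 6 called genes with the largest differences of each other list, and the 5 genes most like Dbp and Arntl; other genes named were chosen after their values were seen. Alternatives were pseudocounts of 0.1 and 1, other filters and scalings, eBayes without trend, the replicate block, covariates and leaving out each library. A comparison of PAR bZIP protein sequences was not analysed here, and 1 of the other core clock genes, counted in its list, is not reported by name or drawn. Unused columns of per-sample values numbered 0.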

Additional observations from a re-analysis of the deposited data

Results flagged for a closer look

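Tef in R6/1 replicate 2 had 69.1 RPKM while the next lowest R6/1 library had 76.5 RPKM, a gap that is wide for the range of the 9 libraries by Dixon's ratio. Without that library the log2 difference of Tef was -0.37, against -0.40 with it. It was the 1 group that stood out of 68 examined, where chance gives about 3.4.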

How the results depend on the processing

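All 289 alternative values of the members' log2 differences kept their sign; 4 moved by more than 1 residual SD, those of Dbp, Hlf, Per1 and Nr1d2 with the mean of Clock, Npas2, Cry1 and Nfil3 as a covariate. All 647 alternative tests of the named genes kept their sign, and 15 lost their call, for Nfil3 and Rbm3 when a library was left out. Over all genes, scaling each library to its own total of reads gave 5113 higher and 2525 lower against 3586 and 3394, so that 66.9% in place of 51.4% of calls were higher; the median of all genes moved to 0.07. The clock output genes that rose numbered 6 with own totals and 5 with quantile normalization in place of 3. The glucocorticoid-responsive genes that fell numbered 0 to 1 when a library was left out, 1 without R6/1 replicate 6; the cause was not tested.

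The replicate numbers did not pair the libraries: same-numbered libraries correlated from -0.05 to 0.24, over 0.1 in 3 of 9 pairs, and 2 of 9 correlated best with their own number. With the replicate number as a block, 3666 genes were higher and 3467 lower.

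The number of members with a negative r with Arntl in WT ran from 1 to 7 when a library was left out. Single relations with Arntl that changed sign when a library was left out ran in WT from -0.22 to 0.53 (Dbp), -0.057 to 0.39 (Per1), -0.16 to 0.67 (Nr1d1), -0.44 to 0.16 (Hlf), -0.45 to 0.0058 (Per2), -0.21 to 0.039 (Nr1d2) and -0.039 to 0.41 (Cry2), and in R6/1 from -0.50 to 0.31 (Hlf), -0.36 to 0.21 (Nr1d2), -0.73 to 0.023 (Nr1d1), -0.70 to 0.011 (Cry2) and -0.41 to 0.15 (Per1). The r of Arntl with Per1 in R6/1, 0.0072, was -0.034 on untransformed RPKM and -0.019 with quantile normalization, and that with Nr1d2 in WT, -0.097, was 0.026 with quantile normalization and 0.069 with own totals. The relations past the threshold numbered 0 under all alternatives with both genotypes, and the cause of the sign changes was not tested. The planned comparison of PAR bZIP proteins was not run.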
